A study of Rattus norvegicus with 10 samples.

Results

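On chromosome 5 of the rat RN4 assembly, the block of 2.5 Mb that starts at 61 Mb held 1045 regions of captured methylated DNA, out of 716492 in the whole matrix and 44286 on chromosome 5. Its members were chosen by position, as the regions that lay wholly inside these limits. The block itself was selected on results of the comparison of sham and TBI rats described here, among them the small p-value of the region from 62291057 to 62291566. Fold changes, calls and profiles over the rats are therefore given as a description of the block, and nothing is supported with them.

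The samples came from adult male Sprague-Dawley rats, an outbred strain in which littermates and unrelated rats differ in inherited sequence. There were 5 sham-operated rats and 5 rats with traumatic brain injury (TBI) from lateral fluid percussion, a model in which a fluid pulse strikes the exposed dura over the left parietal lobe. All rats carried the anesthesia, the craniectomy and the cap on the skull, and sham rats lacked the pulse. Tissue of the left hippocampus with the CA3 field and the dentate gyrus was taken 3 months after the operation, and each library came from 1 rat. The TBI rats are a model of injury that can lead to epilepsy. Per the study's methods they had no EEG monitoring and showed no seizures on handling. The methods cite earlier data by which only a small part of such rats have epilepsy at this time. The study's methods count fewer control rats for methylation profiling than the labels do, without saying which were used, and all labelled rats are used here. The tissue label names the dorsal hippocampus, and captured genomic DNA carries no expressed marker genes against which the tissue could be checked.

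DNA methylation in mammals is placed mainly on cytosines that precede a guanine (CpG sites), and neurons and glia differ in where they carry it. In methyl-capture sequencing, fragments with methylated CpG sites are bound by a methyl-binding domain and sequenced, so that the number of read tags in a region rises with methylation and with the density of CpG sites. A sequence that a rat lacks, or that its variants move away from the reference, gives fewer tags whatever its methylation. In tissue of mixed cells, a lower level per cell and fewer cells that carry the mark cannot be told apart. Coordinates are given as in the matrix, and gene annotation and sequence of the RN4 assembly were not used here.

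Libraries held between 13597924 and 21672940 tags, of which 24661 to 40540 fell in the block. Sham rat 5 stood apart from the other rats in the whole matrix, where 0.487% of the regions were empty in it and 6.57% to 16.3% were empty in each of the others. It had the highest scaled value of all rats in 46.1% of the regions of the matrix and in 38.4% of those of the block (401 regions). Values without this rat are given beside those of all rats for the main comparisons. The part of its library in any result was not tested otherwise.

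The block was dense in captured regions. It held 418 regions per Mb, compared with a median of 294.8 in 1003 other windows of 2.5 Mb on the autosomes, of which 108 held more and 893 fewer. Regions covered 33.6% of the block, compared with a median of 19.3% of a window. The median region of the block was 650 bp long, compared with 573 bp in the matrix, and the quartiles of length were 470 and 963 bp. The shortest region was 198 bp and the longest 4659 bp, and 36 regions (3.44%) were 2 kb or longer, compared with 2.40% of the matrix. Members therefore lay closer to each other and were somewhat longer than in most of the genome.

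The median gap between neighbours in the block was 783.5 bp, whereas the median of the windows was 1249 bp. The widest gap ran from 62987284 to 63044002 and was 56718 bp long. Per 100 kb the block held a median of 47 regions, with the lowest number, 16, in the bin that starts at 61.3 Mb, and the highest, 57, in the last bin. The regions were also strong in tags. Their median level was 1.78 CPM per kb of length (CPM, tag counts relative to the size of each library, scaled by trimmed means), compared with 1.39 CPM per kb in the matrix, and their median tag sum over the rats was 175, compared with 117. Of the 1045 members, 661 (63.3%) reached the sum of 117 tags that was required for testing, which 50% of the matrix reached.

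The first region inside the limits, from 61001085 to 61001831, held 11, 10, 9, 6 and 18 tags in sham rats 1 to 5 and 9, 6, 10, 12 and 17 in TBI rats 1 to 5. The region before it, from 60999815 to 61000723, crosses the limit and was left out, with 20 to 27 tags in sham rats and 20 to 37 in TBI rats. At the other end, the last region inside, from 63498320 to 63499625, held 24 to 48 tags in sham rats and 21 to 45 in TBI rats, and the next outside, from 63501393 to 63502227, held 29 to 70 and 36 to 53. Groups overlapped in all of these regions. Per length, the level was 1.85 CPM per kb just outside and 0.927 CPM per kb just inside the lower limit, and 1.56 CPM per kb inside and 3.50 CPM per kb outside the upper one.

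**Figure D1:**
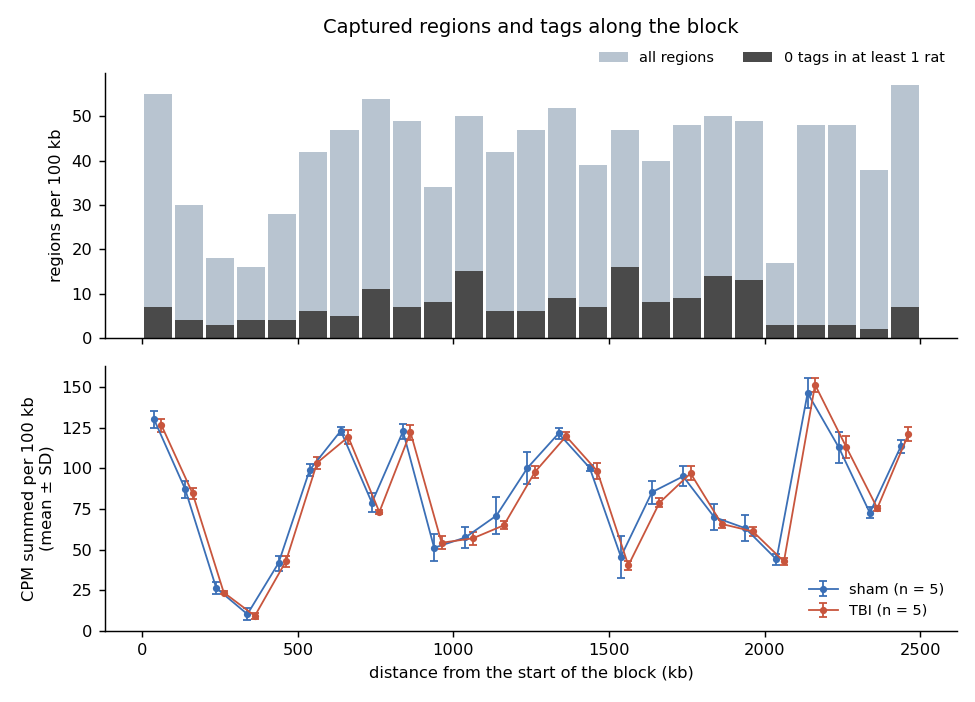
The upper panel plots the number of regions in each 100 kb bin (y) against the distance from the start of the block in kb (x), with regions that had 0 tags in at least 1 rat in dark bars. The lower panel plots the summed CPM of each bin as mean ± SD of 5 sham (blue) and 5 TBI (red) rats, and both lines follow the same course, from 10.2 CPM in sham rats in the bin at 61.3 Mb to 146.3 CPM in the bin at 63.1 Mb.

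Along the block, levels of sham and TBI rats followed the same course. The weakest bin, at 61.3 Mb, had 10.2 ± 3.65 CPM in the sham group and 9.17 ± 1.64 CPM in the TBI group (SD, n = 5 each), and the strongest, at 63.1 Mb, had 146.3 ± 8.99 CPM and 151.4 ± 4.22 CPM. TBI means were above sham means in 8 of the 25 bins, and the log2 ratio of TBI to sham lay between -0.18 and 0.09. In 0 bins were all rats of a group above all rats of the other. With sham rat 5 left out, TBI means were higher in 14 bins and the log2 ratio lay between -0.08 and 0.19. The bin at 62.5 Mb shows the reach of this rat, with 68.4 CPM in sham rat 5, 37.5 to 42.2 CPM in the rest of the sham group and 37.5 to 43.0 CPM in the TBI group.

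Of all tags in a library, the block took 0.181% ± 0.00229 in the sham group (SD, n = 5, from 0.178% to 0.183%) and 0.186% ± 0.00327 in the TBI group (SD, n = 5, from 0.181% to 0.190%). TBI rat 1 lay within the range of the sham rats and the other TBI rats lay above it. The sham mean without rat 5 was 0.182% ± 0.00128 (SD, n = 4). The lowest library, sham rat 5, had 0.1777% (95% Wilson interval 0.1758% to 0.1796%), and the highest, TBI rat 4, had 0.1898% (0.1878% to 0.1917%). Over tested regions alone the shares were 0.190% and 0.193%, closer to each other than their SDs of 0.00469 and 0.00319. In sham rats without rat 5 this share was 0.188% ± 0.00284 (SD, n = 4), and the difference from the TBI group was then larger than either SD. Sham rat 5, lowest by share of all tags, was the highest library over tested regions alone (0.197%) and in summed CPM. Its sum was 2240 CPM, and the other rats had 1980 to 2071 CPM. In summed CPM the sham mean lay above the TBI mean with all rats and below it without sham rat 5. By both shares the TBI mean was the higher, with and without this rat. Which group stood higher thus depended on the scale only while sham rat 5 was included.

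Regions without any tag in some rats were less frequent in the block than in the matrix. Of the 1045 members, 180 (17.2%) lacked tags in at least 1 rat, compared with 26.5% of the matrix and a median of 29.4% over the windows, of which 117 had a lower share. Most of these gaps concerned few rats. A single rat lacked tags in 64 regions, 2 rats in 26 and 3 rats in 17, whereas 9 rats lacked them in 5 regions and all 10 rats in 1. The regions with a gap were short and weak, with a median length of 473 bp and a median tag sum of 30, compared with 718 bp and 231 tags in the regions tagged in all rats.

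In sham rats, 93, 47, 59, 100 and 2 regions of the block lacked tags in rats 1 to 5. In TBI rats the numbers were 62, 98, 58, 56 and 38. The share of members without tags was 5.76% ± 3.77 in the sham group and 5.97% ± 2.10 in the TBI group (SD, n = 5 each), and 7.15% ± 2.46 in sham rats without rat 5 (SD, n = 4), so that the groups overlapped and differed by less than their spread. Sham rat 5 stood far below all others. It had tags in 178 of the 180 regions with a gap, the highest tag count of all rats in 142 of them, and over 50% of the tags of all rats in 69 (38.3%). A region listed at 0 tags still allows a level up to the 3 tags that counting error leaves possible, which is 0.151 to 0.236 CPM in the first 4 TBI rats.

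**Figure D2:**
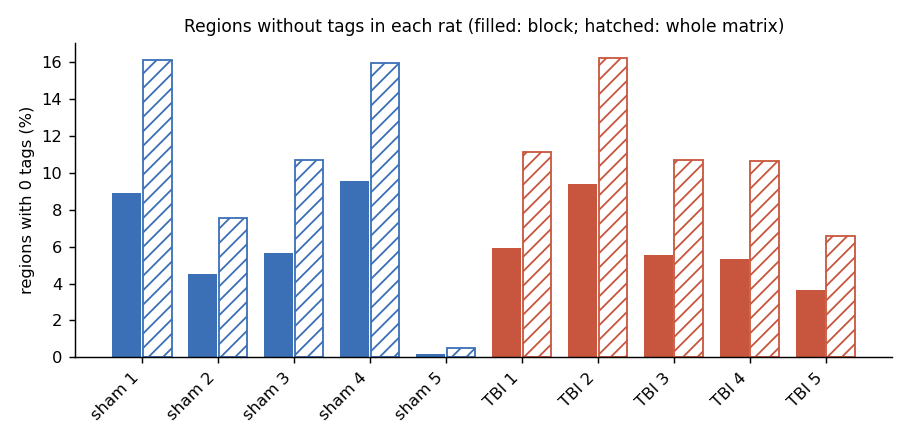
Bars give the percent of regions without tags (y) for each of the 10 rats (x), in the block and in the whole matrix. In every rat the block has the lower share, from 0.191% in sham rat 5 to 9.57% in sham rat 4, compared with 0.487% and 16.0% of the matrix.

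Gaps were not divided by group. Tags were lacking in every TBI rat in 10 regions, and in 0 of these did all sham rats hold tags. They were lacking in sham rats 1 to 4 together in 22 regions, and in every sham rat in 1, which was the region empty in all 10 rats. Among the 661 tested members only 2 (0.303%) lacked tags in a rat, compared with 0.214% of all tested regions. These were the region from 62291057 to 62291566 and that from 62199243 to 62200706, which held 122 of its tags in sham rat 5, 0 in sham rat 4, and between 3 and 26 in each of the others.

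Only 1 of the 1045 members had 0 tags in at least 2 rats together with 20 or more tags in at least 2 rats. It was the region from 62291057 to 62291566, and the pattern was found in 188 of the 716492 regions of the matrix. This region is 509 bp long and held 140 tags in all. Sham rats 1 to 5 had 31, 16, 27, 37 and 14 tags, TBI rats 1 to 4 had 0, and TBI rat 5 had 15. All sham rats stood above all TBI rats, since the 15 tags of TBI rat 5 are 0.777 CPM and the 14 tags of sham rat 5 are 0.949 CPM. In CPM the groups had 1.64 ± 0.641 and 0.155 ± 0.347 (SD, n = 5 each), and the TBI mean rests on TBI rat 5 alone. The log2 fold change of TBI against sham was -3.17 ± 0.71 (SE), and -3.29 ± 0.56 without sham rat 5. Here and below, the SE is derived from the fold change and the F statistic of edgeR's quasi-likelihood test. With TBI rats 1 to 4 at 0 tags, it is only a rough guide in this region. Without TBI rat 5 all remaining TBI libraries are at 0, and the fitted value of -7.68 then depends on the prior count and gives no size. The unadjusted p was under 0.01 in edgeR's quasi-likelihood and exact tests and not in the Wald test of DESeq2.

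The next region along the chromosome, from 62293410 to 62294439 and 1029 bp long, was also low in TBI rats 1 to 4, though the sham rats stood in another order. It held 23, 22, 17, 52 and 20 tags in sham rats 1 to 5 and 4, 3, 7, 2 and 27 in TBI rats 1 to 5. Here TBI rat 5 had 1.398 CPM and lay among the sham rats, while the other TBI rats were below all of them, and the log2 fold change was -1.78 ± 0.48 (SE), with 1.74 ± 0.728 CPM in sham and 0.479 ± 0.522 CPM in injured rats (SD, n = 5 each). Without TBI rat 5 the log2 fold change was -2.76. Over the 10 rats, its log2 CPM correlated with that of the region from 62291057 at r = 0.94. In tissue from 1 library per rat, both values share the library and its depth.

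The regions directly on either side of this pair did not share the pattern. From 62287893 to 62288347 there were 3, 10, 4, 4 and 32 tags in sham rats and 4, 3, 6, 5 and 6 in TBI rats, low throughout apart from sham rat 5. From 62295473 to 62297650 there were 34, 57, 62, 36 and 67 tags in sham rats and 34, 45, 52, 45 and 74 in TBI rats. Further along, from 62302095 to 62302956, sham rats had 102, 74, 166, 168 and 69 tags and TBI rats 97, 137, 168, 141 and 193. In these regions every rat carried tags and the groups overlapped. Of the 9 other regions nearest to that from 62291057 apart from its neighbour, 1 had a like division of the groups. From 62282807 to 62283091, a region below the tag sum required for testing, sham rats had 6, 13, 8, 13 and 7 tags and TBI rats 0, 2, 3, 5 and 6, which is 0.422 to 1.00 CPM and 0 to 0.311 CPM, without overlap and with TBI rat 5 the highest of its group.

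Other members had a similar profile over the rats at a distance. With r above 0.8 over the 10 rats, 4 of the other 660 tested members (0.606%) followed the region from 62291057, compared with 456 of 358248 regions (0.127%) of the matrix. Apart from its neighbour these lay at 61737601 to 61738477 (r = 0.91), at 62041368 to 62041929 (r = 0.91) and at 62921586 to 62922307 (r = 0.86). They were found by their likeness to a region that separates the groups, so that a lower level in TBI rats comes with the choice.

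In the first of these, sham rats had 22, 30, 27, 55 and 31 tags and TBI rats 9, 10, 18, 13 and 28. TBI rat 5, at 1.45 CPM, was again the highest of its group, and the next TBI rat had 0.908 CPM. The second held 20, 12, 24, 16 and 12 tags in sham rats and 5, 6, 6, 4 and 28 in TBI rats, where TBI rat 5 also had 1.45 CPM and the next TBI rat 0.433 CPM. The third held 18, 22, 20, 22 and 18 tags in sham rats and 6, 10, 18, 9 and 22 in TBI rats. In each of the 4 followers, TBI rat 5 was the highest TBI rat and lay within the range of the sham rats.

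An opposite profile was seen in as many members. With r below -0.8 there were 4 members (0.606%), compared with 498 regions (0.139%) of the matrix. The strongest lay at 61463307 to 61463922 (r = -0.86), with 19, 25, 44, 28 and 40 tags in sham rats and 31, 54, 77, 70 and 47 in TBI rats, and here TBI rats 1 and 5 lay within the range of the sham rats and TBI rats 2, 3 and 4 above it. The others were at 61592313 to 61593244 (r = -0.80), at 61613270 to 61613920 (r = -0.83) and at 61888814 to 61889390 (r = -0.82). At 61888814, TBI rat 5 had 28 tags, below the 40, 41 and 42 tags of TBI rats 2, 3 and 4. At 61613270, with 19, 23, 34, 30 and 23 tags in sham rats and 28, 38, 45, 37 and 43 in TBI rats, TBI rat 5 stood with its group and the CPM values did not overlap. Without sham rat 5, 8 members (1.21%) followed and 5 (0.758%) opposed the region, compared with 0.337% and 0.384% of the matrix.

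**Figure D3:**
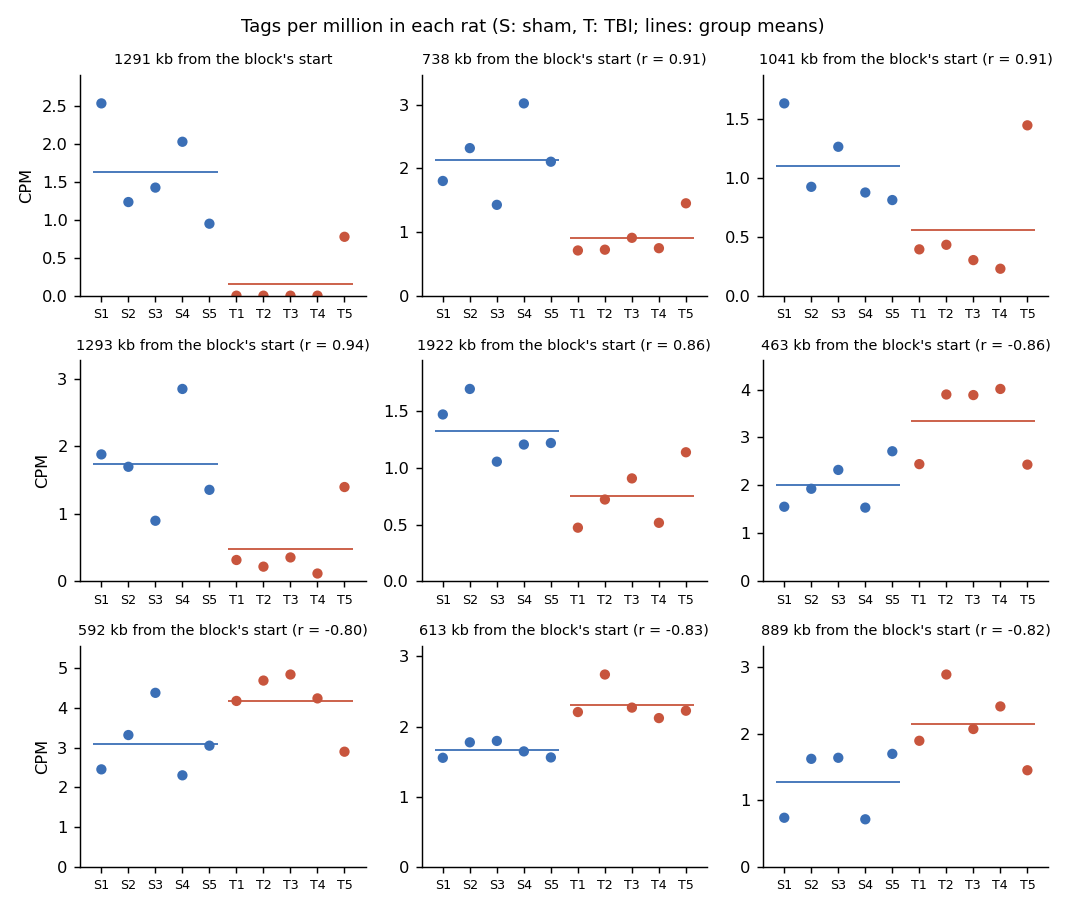
Each panel plots the CPM of 1 region (y) in sham rats 1 to 5 (S, blue) and TBI rats 1 to 5 (T, red), with the group means as lines, for the region from 62291057, its 4 followers and the 4 opposite regions. In the region from 62291057, TBI rats 1 to 4 are at 0 and TBI rat 5 is at 0.777 CPM, and in the followers TBI rat 5 stands above the other TBI rats, at 1.45 CPM in the panels at 61737601 and 62041368.

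Neighbouring members did not in general vary together over the rats. Between tested members within 100 kb of each other (18096 pairs) the mean r was 0.00845, compared with 0.0142 on the rest of chromosome 5 (461249 pairs). An r above 0.8 was found in 150 pairs (0.8289%), compared with 1.41% on the rest of the chromosome. The mean r was 0.00786 and 0.0145 without sham rat 5. Among the most variable regions (the upper 25% by SD), it was 0.169 in the block and 0.159 on the rest of the chromosome. Pairs share rats and libraries, and these values carry no test.

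Over the members, rats of a group were more alike, and rats of different groups less alike, than over most other windows. After each region's mean over the rats was subtracted, which by itself makes the average r negative, pairs of sham rats correlated over the 661 tested members at a mean r of -0.0852, pairs of TBI rats at -0.0201 and pairs of a sham and a TBI rat at -0.150. The medians over 865 other windows with at least 100 tested regions were -0.153, -0.105 and -0.0840. Of these windows, 3 had a higher value within sham rats, 5 within TBI rats, and 862 between the groups. Without sham rat 5 the values were -0.0376, -0.0320 and -0.195. Because the block was chosen with the group contrast known, its place among the windows is a description and not a test.

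Single pairs of rats differed in how alike they were. TBI rat 4 correlated with TBI rat 2 at r = 0.14 and with TBI rat 3 at r = 0.15, above the windows' medians of -0.08 and -0.07. TBI rat 5 stood apart from these 3 rats, with r = -0.26 to rat 2, -0.18 to rat 3 and -0.17 to rat 4, where the windows' medians were -0.23, -0.10 and -0.10. Sham rats 1 and 4 were the most alike (r = 0.40, with a median of 0.27 over the windows), and sham rat 1 and TBI rat 4 were less alike than in most windows (r = -0.29 against -0.07). TBI rats 2, 3 and 4 were thus more alike in the block than in most windows. Without sham rat 5, r was 0.03 for TBI rats 2 and 3, 0.07 for 2 and 4, and 0.14 for 3 and 4. TBI rat 5 was unlike them, in the case of rat 2 about as much as in other windows.

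**Figure D4:**
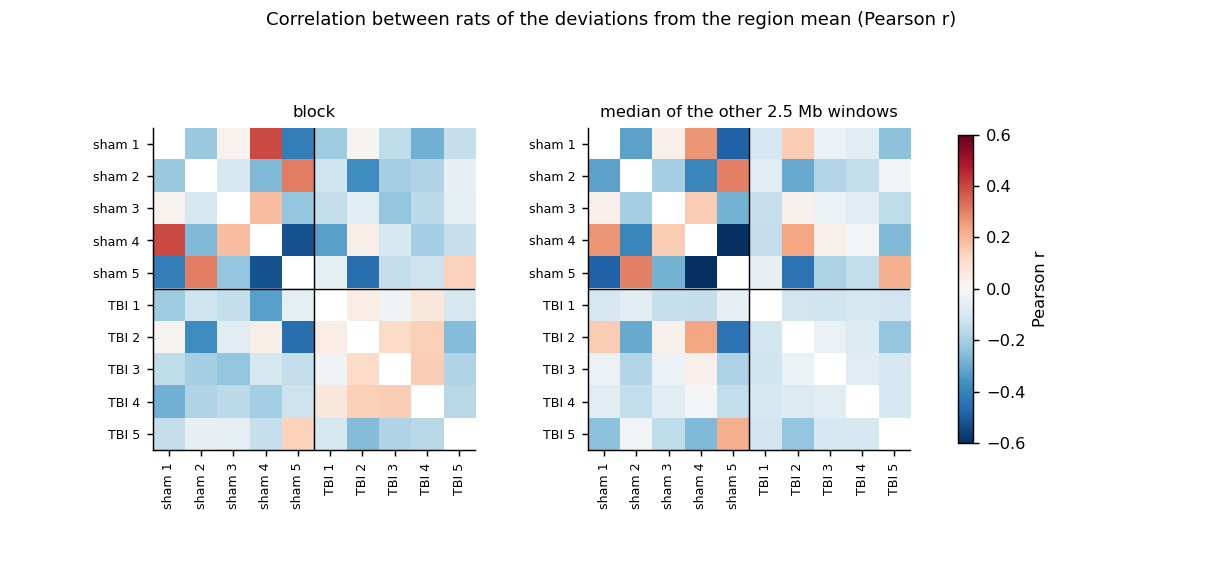
The left panel plots the Pearson r of each pair of the 10 rats over the 661 tested members, as deviations from the region mean, and the right panel the median r of the same pair over 865 other windows. TBI rats 2, 3 and 4 correlate at up to 0.15 in the block, where the median of other windows is below 0, and sham rats 1 and 4 reach 0.40.

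The likeness was strongest in the middle of the block. From 62.0 to 62.5 Mb (145 tested members), the mean r was -0.0050 within sham rats, 0.060 within TBI rats and -0.216 between the groups. Leaving out sham rat 5, these were 0.086, 0.058 and -0.275. From 61.5 to 62.0 Mb (140 members) they were -0.080, -0.018 and -0.152 with all rats. In the first 500 kb of the block (98 members), they were -0.105, -0.036 and -0.131. From 62.5 to 63.0 Mb (121 members) pairs of sham rats, at -0.141, were less alike than pairs between the groups, at -0.098, and in the last 500 kb (157 members) the same held, at -0.143 and -0.097. Leaving out sham rat 5, pairs of sham rats stood at -0.137 and pairs between the groups at -0.125 from 62.5 to 63.0 Mb, and at -0.130 and -0.133 in the last 500 kb, where the order turned. Rats of a group were thus more alike than rats of different groups in each stretch up to 62.5 Mb, and beyond it the order for sham rats was mixed.

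Members varied between rats of a group about as much as other regions did, or less. The median within-group SD of log2 CPM was 0.349 in the block and 0.376 over all tested regions, and 0.321 and 0.333 without sham rat 5. Of the 661 members, 27 (4.08%) were among the 5% most variable of all tested regions, and 31 (4.69%) without sham rat 5. Both shares lay below the 5% that defines the set. Ranked among regions of like abundance, 15 members (2.27%) were in the upper 5%, and 32 (4.84%) without sham rat 5.

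In the 5 members of largest spread, sham rat 5 was the highest rat. From 62199243 to 62200706 (within-group SD 1.69), sham rats had 5, 18, 13, 0 and 122 tags and TBI rats 11, 3, 5, 10 and 26. From 61080870 to 61081885 (SD 1.12), they had 6, 15, 9, 7 and 59 tags and 3, 1, 10, 14 and 16. The others lay at 63223218 to 63224040 (SD 1.09, 41 tags in sham rat 5), at 62826126 to 62827032 (SD 1.09, 38 tags) and at 62478645 to 62479310 (SD 1.00, 31 tags). In the last 2 of these sham rat 2 came next, with 30 and 24 tags, and sham rat 1 had 2 tags in each.

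The steadiest members were long and strong. From 61604614 to 61608365 (within-group SD 0.08) the level was 16.1 ± 0.490 CPM in the sham group and 16.9 ± 1.28 CPM in the TBI group (SD, n = 5 each). The others lay at 63186854 to 63189762 (SD 0.09) and at 61847713 to 61849869 (SD 0.11). The strongest member of all, from 62312463 to 62316879 and 4416 bp long, had a sham mean of 23.7 ± 4.20 CPM and a TBI mean of 24.6 ± 1.60 CPM, and lies close to the region that 4 TBI rats lacked. The longest, from 61546062 to 61550721, had 15.6 ± 2.02 and 17.4 ± 1.55 CPM, and that from 63200992 to 63205054, 4062 bp long, had 15.5 ± 1.75 and 15.8 ± 1.48 CPM. In all of these the groups overlapped.

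To ask where sham and TBI rats differed in single regions, tags were tested by edgeR's quasi-likelihood test over all 358249 tested regions. At an unadjusted p under 0.01, 7 of the 661 members were called (1.06%), compared with 0.266% of all regions tested. Of these, 2 were higher in TBI rats (0.303%, compared with 0.098% of all regions) and 5 were lower (0.756%, compared with 0.168%). When libraries were scaled by total tags alone there were 9 called members, 6 higher and 3 lower, compared with 0.295% of all regions, and calls over all regions turned the same way, with 0.186% higher and 0.109% lower. At an adjusted p under 0.05 (Benjamini-Hochberg over all regions), 0 members and 0 of all regions were called by this test, and 44 members (6.66%) had an unadjusted p under 0.05, compared with 2.45% of all regions. By edgeR's exact test 10 members were called (compared with 0.371% of all regions) and by the Wald test of DESeq2 7 (compared with 0.243%), with 0 members at an adjusted p under 0.05 in either, compared with 4 and 0 of all regions. Since the block was selected on this comparison, nothing is read from its shares.

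Without sham rat 5, 19 of 654 members were called (2.91%), compared with 0.792% of 358615 regions. Of these, 11 were higher in TBI rats (1.68%, compared with 0.397%) and 8 were lower (1.22%, compared with 0.396%). Both fits shared 5 calls, which are 71.4% of the 7 and 26.3% of the 19. The region from 62291057 was the only member with an adjusted p under 0.05 in edgeR's test without this rat (adjusted p = 0.0277, log2 fold change -3.29, lower in 5 of 5 TBI rats), 1 of 14 such regions in the matrix. The median log2 fold change of the members was 0.01 with all rats, compared with -0.02 over all regions, and 0.04 and -0.0027 without sham rat 5.

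Values of sham and TBI rats did not overlap in 10 members (1.51%, compared with 0.502% of all regions), with 5 higher and 5 lower in TBI rats. Without sham rat 5 there were 18 such members (2.72%, compared with 1.53%), 11 higher and 7 lower. Members without overlap thus lay on either side of the sham rats.

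**Figure D5:**
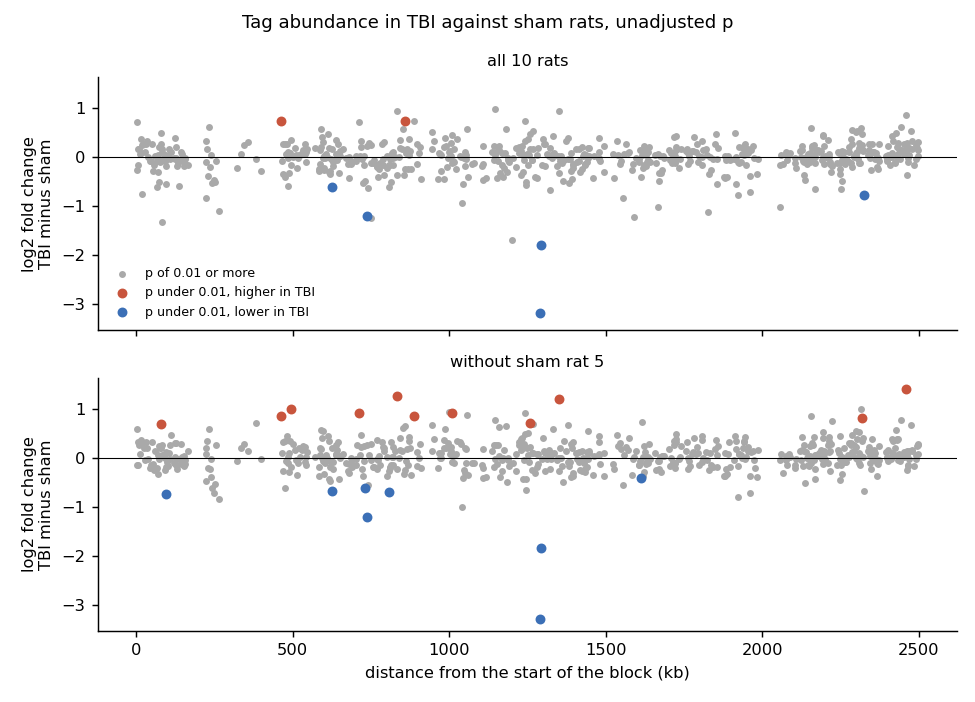
Each point is 1 tested member, with its log2 fold change of TBI against sham (y) at its distance from the start of the block in kb (x), with all 10 rats and without sham rat 5. Members with an unadjusted p under 0.01 (7 and 19) are marked, and most of the others lie close to 0 in either fit.

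Among members lower in TBI rats with the smallest p, beside those already given, the region from 61624323 to 61625107 had 35, 33, 66, 64 and 36 tags in sham rats and 33, 33, 34, 29 and 31 in TBI rats, a log2 fold change of -0.61 ± 0.20 (SE). The region from 63324181 to 63324873 had 18, 27, 30, 23 and 32 tags in sham rats and 13, 13, 12, 21 and 23 in TBI rats, with a log2 fold change of -0.78 ± 0.27 (SE). In the latter the CPM values of the groups did not overlap. TBI rat 5 was not the highest TBI rat by CPM in either. At 63324181 it had the most tags of its group and 1.19 CPM, close to the 1.20 CPM of TBI rat 4.

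When sham rat 5 was left out, 2 further regions were among the 5 with the smallest p on this side. From 61095536 to 61096375, sham rats 1 to 4 had 53, 76, 64 and 85 tags, sham rat 5 had 25, and TBI rats had 30, 28, 51, 52 and 67, so that the log2 fold change went from -0.55 ± 0.25 (SE) to -0.73 ± 0.19 (SE) when this rat was left out. From 61732316 to 61734090, close to the follower at 61737601, sham rats had 99, 74, 171, 171 and 71 tags and TBI rats 57, 82, 90, 93 and 121, with a log2 fold change of -0.49 ± 0.18 (SE), and -0.61 ± 0.15 (SE) without sham rat 5. In both, sham rat 5 was the lowest of its group.

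On the other side were members higher in TBI rats. From 61858594 to 61859256, sham rats had 16, 11, 23, 28 and 13 tags and TBI rats 22, 37, 39, 29 and 35, a log2 fold change of 0.75 ± 0.25 (SE) with no overlap in CPM. From 61233753 to 61234206 they had 10, 22, 37, 37 and 23 tags against 27, 36, 43, 54 and 50 (log2 fold change 0.62 ± 0.23, SE), and from 63194942 to 63196448 they had 48, 39, 89, 74 and 55 against 68, 79, 97, 89 and 102 (0.43 ± 0.15, SE), both also without overlap in CPM. In the region from 61589073 to 61589679, with 28, 22, 51, 32 and 31 tags against 30, 60, 71, 49 and 50, the groups overlapped. The region from 61463307, described above for its opposite profile, had the smallest p on this side and a log2 fold change of 0.73 ± 0.22 (SE), and 0.85 ± 0.22 (SE) without sham rat 5.

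In other members sham rat 5 was the highest of its group and lay among the TBI rats, or above them. From 62009350 to 62010632, sham rats 1 to 4 had 10, 16, 30 and 12 tags, sham rat 5 had 47 and TBI rats had 28, 33, 29, 37 and 42, and the log2 fold change went from 0.46 ± 0.33 (SE) to 0.92 ± 0.27 (SE) without it. From 63318931 to 63319883, sham rat 5 had 48 tags, the other sham rats 14 to 31 and TBI rats 23 to 54 (log2 fold change 0.46 ± 0.26 and 0.81 ± 0.23, SE). The same was seen from 61832469 to 61833093, with 5, 13, 20, 3 and 21 tags in sham rats and 15, 21, 38, 31 and 27 in TBI rats, and from 62351300 to 62351762, with 9, 3, 9, 9 and 14 against 16, 17, 15, 21 and 22. Their log2 fold changes without sham rat 5 were 1.25 ± 0.35 and 1.19 ± 0.37 (SE). Of these, all but the first were free of overlap once sham rat 5 was left out, and each has an adjusted p = 0.996 in edgeR's test without this rat.

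The calls with all rats moved with single libraries. Between 3 (without TBI rat 3) and 19 (without sham rat 5) members were called when 1 rat was left out, with 0 higher in TBI rats without TBI rat 2 or TBI rat 3, 1 without sham rat 1, sham rat 2 or TBI rat 4, and 4 without sham rat 3. Calls over all regions moved too, from 0.171% without TBI rat 3 to 0.792% without sham rat 5. Over all regions, calls higher in TBI rats ranged from 0.072% to 0.397% in these fits. At an adjusted p under 0.05 in edgeR's test, 1 member passed without sham rat 5 and 1 without TBI rat 5, and 0 in each of the other 8 fits. The regions from 61737601 and from 62293410 kept an unadjusted p under 0.01 in all 10 of these fits, and that from 62291057 in the 9 that tested it. The region from 61463307 lost this level without sham rat 1 or 4 or TBI rat 2, 3 or 4, that from 61858594 without sham rat 2, 3 or 5 or TBI rat 2, 3 or 5, that from 61624323 without sham rat 1, 3 or 4 or TBI rat 3, 4 or 5, and that from 63324181 in all but the fits without sham rat 4 and TBI rat 4. In 0 of these fits did a fold change turn its direction, but the regions were chosen by small p-values in the same data.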

How the data were processed

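Methylated DNA of 5 sham-operated and 5 TBI rats was analysed, with groups taken from the treatment labels and matrix columns matched by rat number (0 other columns). Per the study's methods and the labels, libraries of MethylMiner-captured DNA were sequenced on the Illumina Genome Analyzer IIx as single reads of 36 bp, aligned with BWA to RN4, and regions that MACS found in any pair of samples were merged with BEDTools, so that which regions are listed depends on every library. The matrix deposited by the authors holds raw counts of tags for each region in each sample, with duplicate reads removed and no scaling for depth. Whether positions count from 0 or 1 is not stated.

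Block members were rows of chromosome 5 from 61000000 to 63500000. The block, the lists and the alternatives were chosen with earlier results of these data known. Regions with a tag sum at or above the 50th percentile (117 tags) entered edgeR 4.0.16 (R 4.3.3, TMM, glmQLFit and glmQLFTest, no covariates), with Benjamini-Hochberg adjustment over all of them. The SE of a log2 fold change is its absolute value divided by the square root of the F statistic of that test. CPM values use library sizes over tested regions scaled by TMM, and log2 CPM a prior count of 2. Libraries held 13597924 to 21672940 tags, and counting errors, Wilson intervals and limits from 3 tags cover counting error only. Windows were 2.5 Mb long. Named were the 5 smallest p-values in each direction with and without sham rat 5, the region absent in some rats, the 5 most and 3 least variable, the 3 strongest, the 3 longest and the regions at both limits. Regions following that from 62291057 by an r above 0.8 or below -0.8 were found after seeing the data.

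Alternatives were DESeq2 1.42.0 size factors and its Wald test, total tags alone, edgeR's exact test, no filter beyond 1 tag, other thresholds and leaving out each rat. Scripts (Python 3.11.15, numpy 2.4.6, pandas 2.3.3, scipy 1.17.1) were tested on simulated data. Each library came from another rat, and p-values measure the spread between rats.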

Additional observations from a re-analysis of the deposited data

Results flagged for a closer look

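Sets of 5 values were formed for each group, 1 for each named region inside the limits. Further sets held the share of tags in the block and the share of members without tags. Of the 72 sets, 11 had a rat that stood far from the other 4. Chance flags about 3.6 of 72 sets, but the named regions were chosen for small p-values, large spread or likeness to each other, so that the number cannot be read as an excess. Of these, 3 concerned sham rat 5, which had 8.27 CPM from 62199243 to 62200706 (the next sham rat had 1.39 CPM), 4.00 CPM from 61080870 to 61081885 (next 1.16 CPM) and 3.26 CPM from 63318931 to 63319883 (next 1.64 CPM). TBI rat 5 stood above its group in the region from 62291057, with 0.777 CPM (the other TBI rats had 0), and in 3 regions that followed it. These were the regions from 62293410 to 62294439, with 1.398 CPM (next 0.353 CPM), from 62041368 to 62041929, with 1.45 CPM (next 0.433 CPM), and from 61737601 to 61738477, with 1.45 CPM (next 0.908 CPM). The 3 were chosen by their likeness to the region from 62291057, so that they are not separate from it.

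TBI rat 2 had 2.74 CPM from 61613270 to 61613920, and the next TBI rat 2.27 CPM. TBI rat 3 was low from 62009350 to 62010632, with 1.46 CPM (next 2.12 CPM), and from 62351300 to 62351762, with 0.757 CPM (next 1.14 CPM). TBI rat 4 had 27.3 CPM in the strongest member, from 62312463 to 62316879, and the next TBI rat 24.4 CPM. What sets these rats apart was not tested.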

How the results depend on the processing

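No paired analysis was possible because the groups hold different rats with different numbers. Leaving out each rat in turn, the 7 called members became 3 to 19, the 2 higher in TBI rats 0 to 11 and the 5 lower 3 to 8. Over all regions the shares were 0.171% to 0.792% called, 0.072% to 0.397% higher and 0.099% to 0.558% lower. With no filter beyond 1 tag, 13 of 1044 members were called, 6 of them higher, compared with 3824 of 715411 regions, 658 of them higher. At an unadjusted p under 0.05, with the filter, there were 44, compared with 2.45% of all regions. Total tags alone gave 6 higher and 3 lower members (compared with 0.186% and 0.109% of all regions) and a median log2 fold change of 0.067. The exact test of edgeR gave 4 higher, compared with 459 of 358249 regions. The share of tags in the block was 0.190% (sham) and 0.193% (TBI) over tested regions only. Members lacking tags in a rat made up 24.0% with at most 1 tag counted as absent and 20% after thinning to the smallest library. Those present in some rats and absent in others numbered 11 of 1045 from 10 tags, compared with 6026 of 716492 regions of the matrix. The mean r of neighbours was 0.169 among the most variable 25%, and the share of variable members 0.605% for the upper 1% and 2.27% within bins of abundance.

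Chosen after seeing the data, removing each rat's trend with abundance gave a mean r within sham rats of -0.0713, and leaving out sham rat 5 gave -0.0376 within sham rats and -0.195 between groups, with 18 members free of overlap. Fold changes of 16 named regions were compared with each rat left out, DESeq2 size factors, total tags alone and the Wald test of DESeq2. Of these 207 values, 164 kept their side of the threshold, 28 fell short of it, 15 reached it and 0 changed direction. The cause of these changes was not tested. Regions of few tags limit what depth can show, since 3 tags are up to 0.236 CPM.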
